A study of Mus musculus with 6 samples.

Results

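The mitochondrial carrier family, whose genes carry the Slc25a symbols, was followed in collecting duct cells from newborn mouse kidneys. A gene was a member if the RefSeq accession of an array probe mapped to a mouse symbol made of Slc25a and a number. All 47 such genes of the reference table were on the array, with 56 probes, out of 20887 named genes and 55681 probes. Of these, 41 members with 49 probes were measured above background well enough to be tested, out of 14583 genes. The other 6 members were Slc25a2, Slc25a18, Slc25a31, Slc25a41, Slc25a43 and Slc25a54.

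Mitochondrial carriers are small proteins of the inner mitochondrial membrane, most of which exchange one metabolite of the matrix for another of the cytosol. ADP/ATP and phosphate carriers supply the ATP synthase and export its product, and other members move amino acids, carboxylates, cofactors, iron or glutathione. Uncoupling proteins of the same family can let protons or anions pass. Tubule segments that pump salt or acid are rich in mitochondria.

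Cells were sorted by GFP and tdTomato fluorescence from salt-stressed kidneys on postnatal day 1, in the C57BL/6 strain. Both groups carried Hoxb7cre and the R26RtdTomato reporter, and the Cre driver marks the ureteric bud lineage, from which the collecting duct forms. The 3 WT pools were Bdkrb2+/+ and the 3 MUT pools Bdkrb2f/f, in which Cre can remove the floxed gene of the bradykinin B2 receptor from cells of that lineage. Each two-colour array held a pool in Cy5 and, as a common reference, WT pool 1 in Cy3. WT pool 1 was therefore hybridised against its own RNA. The pools are described as biological replicates, and the sources used here do not say how many mice made up each. The comparison asks how gene expression in these cells goes with loss of the receptor.

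Probes well above background in Cy5 numbered 28645, 27021 and 27464 in WT pools 1 to 3. In MUT pools 1 to 3 they numbered 30711, 31312 and 30875, so every MUT array had more than every WT array. Precision is limited by there being 3 arrays per group. Bdkrb2 itself had 1 probe, not well above background on any array, with log2 ratios between -0.16 and 0.12 in the WT pools and between -0.08 and 0.05 in the MUT pools, so the labels could not be checked with it. Markers of the labelled cell type were detected. Of the principal cell markers 13 of 15, of the intercalated cell markers 17 of 17 and of the ureteric trunk markers 16 of 16 were tested. So were 16 of 16 proximal tubule and 15 of 15 nephron progenitor markers, so detection does not tell the labelled cell type from others. Values are log2 ratios to WT pool 1 after loess, which sets the typical probe of an array to 0, so that lower and higher mean relative to the typical gene. Pool values are given in the order of pools 1, 2 and 3. With arrays set instead to the 10 spike-in control probes, the median gene of the MUT pools lay 0.94 higher if loess was kept and 0.88 higher if it was dropped. For this reason both spike-in values are given beside each member that changed, in that order. With loess kept, the spike-in setting shifts all genes of an array by the same amount. Whether a fall then turns above 0 depends only on its size, so the first value is not a separate result for each gene. The mean log2 ratio of the control probes, to which each array was set, varied within groups. With loess kept it was -0.07, 0.31 and 0.94 across the WT pools and -0.79, -0.64 and -0.26 across the MUT pools. With loess dropped the groups overlapped, with WT pool 2 at 1.28 and MUT pool 3 at 1.40.

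The promoters of 4 members are printed because these genes carry the results that follow. Slc25a3 and Slc25a30 were among the carriers with the largest falls after loess, and Slc25a4 and Slc25a5 are close relatives with unequal falls. Each sequence runs from 250 bases before to 50 bases after the start of the gene, from RefSeq on GRCm38.p6. Capitals mark matches on either strand to 6 motifs, which were NRF1 (GCGC, any 2 bases, GCGC), TNAAGGTCA (ERR), CCGGAAGT (ETS), TGACGTCA (CRE), CCAAT and TATAA. No match overlapped another.
Slc25a3, chr10:91123918-91124217, minus strand: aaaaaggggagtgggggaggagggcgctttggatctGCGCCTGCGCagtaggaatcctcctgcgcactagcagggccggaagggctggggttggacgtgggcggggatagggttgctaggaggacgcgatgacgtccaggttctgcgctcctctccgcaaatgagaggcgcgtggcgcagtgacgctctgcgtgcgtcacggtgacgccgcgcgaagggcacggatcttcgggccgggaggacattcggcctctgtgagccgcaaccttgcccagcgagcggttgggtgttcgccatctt
Slc25a4, chr8:46211013-46211312, minus strand: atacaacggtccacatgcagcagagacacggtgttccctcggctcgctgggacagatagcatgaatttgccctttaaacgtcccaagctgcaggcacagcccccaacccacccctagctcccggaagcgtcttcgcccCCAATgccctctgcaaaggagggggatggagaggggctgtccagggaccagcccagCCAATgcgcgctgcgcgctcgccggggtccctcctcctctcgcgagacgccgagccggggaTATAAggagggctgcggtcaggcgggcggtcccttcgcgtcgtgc
Slc25a5, chrX:36795347-36795646, plus strand: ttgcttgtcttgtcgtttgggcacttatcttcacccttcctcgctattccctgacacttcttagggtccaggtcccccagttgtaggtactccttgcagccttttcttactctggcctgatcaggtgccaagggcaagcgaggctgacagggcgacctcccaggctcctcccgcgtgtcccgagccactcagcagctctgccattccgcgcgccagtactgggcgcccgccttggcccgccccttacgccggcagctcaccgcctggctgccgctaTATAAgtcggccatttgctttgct
Slc25a30, chr14:75786988-75787287, minus strand: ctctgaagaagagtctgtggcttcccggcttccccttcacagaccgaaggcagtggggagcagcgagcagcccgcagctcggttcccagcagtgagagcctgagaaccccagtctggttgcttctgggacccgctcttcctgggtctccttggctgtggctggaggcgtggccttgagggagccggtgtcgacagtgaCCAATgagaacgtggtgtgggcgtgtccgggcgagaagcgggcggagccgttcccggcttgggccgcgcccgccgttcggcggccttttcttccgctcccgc

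NRF1, a transcription factor of many genes for mitochondrial proteins, had its motif in the promoter of Slc25a3. It was also in those of Slc25a10 and the untested Slc25a31, or 3 of the 36 members with a promoter entry (8.33%), against 1891 of 27025 genes. The ERR motif was in none of the 36, and in 1.43% of genes. CCAAT was present in 19 of 36 members, among them Slc25a4 and Slc25a30, against 41.1% of genes. TATAA stood in both ADP/ATP carrier promoters shown, 5 and 26 bases after the annotated start of Slc25a4 and Slc25a5, and in 5 of 36 members against 28.0% of genes. The ETS motif was found in Slc25a20 alone (2.78% against 4.31%) and the CRE motif in Slc25a25 and Slc25a36 (5.56% against 2.03%). The motifs were chosen with the members' changes and these promoters known, and a match describes letters in the window and is not evidence of a site.

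Of the 41 tested carriers 17 fell and 1 rose in MUT pools (limma, adjusted p under 0.05 over all tested probes), while 23 did not pass. That is 41.5% lower, where 18.9% of all tested genes were lower, and 2.44% higher, where 14.0% of all were higher (32.9% were called in either direction). The median difference was -0.31 over the carriers and -0.02 over all genes. With the spike-in controls these medians were 0.65 against 0.94 after loess and 0.54 against 0.88 without it. The carriers' median thus stood below that of all genes by 0.29 on the log2 scale in the main setting, and by 0.26 to 0.46 over 22 alternatives. Several of these alternatives could not move that gap, since they left the differences as they were or added the same amount to all. The log ratios of the scanner files and of the series matrix, counted as separate alternatives, were nearly the same values. All MUT pools lay below all WT pools for 24 carriers (58.5%, against 28.4% of all genes), and above them for 3 (7.32%, against 24.2%).

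How many carriers were called depended on single arrays. Leaving out WT pool 1 or WT pool 3 gave 9 in either case, against 11 without MUT pool 2 and 11 without MUT pool 3. The calls of 9 members held without each of the 6 arrays in turn, and these were Slc25a3, Slc25a5, Slc25a11, Slc25a12, Slc25a13, Slc25a16, Slc25a30, Slc25a35 and Slc25a45. When loess was replaced by median centring, Slc25a11 (adjusted p = 0.0893), Slc25a13 (0.071), Slc25a16 (0.141) and Slc25a45 (0.106) lost their call. Of the other 9 called carriers only Slc25a47 kept its call under median centring. WT pool 2 had the lowest ratio of the WT pools for 26 of 41 carriers (63.4%, against 37.3% of all genes). The median carrier was at 0.01, -0.11 and 0.02 across the WT pools, against -0.25, -0.41 and -0.44 across the MUT pools. WT pools 2 and 3 lay in the second row of the slide and all other arrays in the first. With the row as a block 9 carriers were called, all lower, but that fit sets the 3 MUT pools against WT pool 1 alone, the array of the reference RNA against itself, whose spread is assumed to be that of the other arrays.

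**Figure D1:**
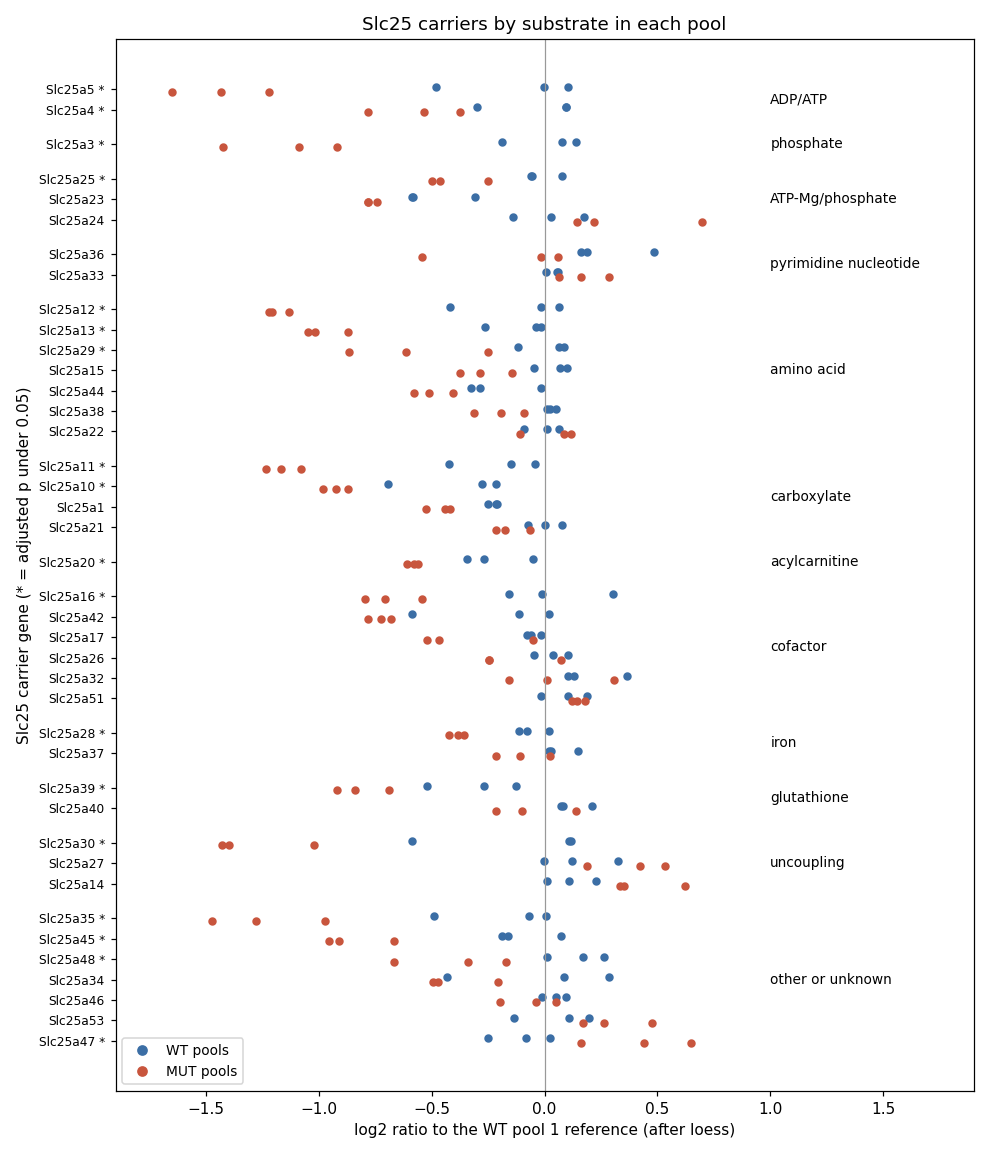
Log2 ratio to the WT pool 1 reference (horizontal axis) of the tested Slc25 carriers but 1 (rows, grouped by substrate) in the 3 WT pools (blue) and 3 MUT pools (red), 1 point a pool. Stars mark the 18 carriers called, 17 lower and 1 higher after loess, none of them called lower with the spike-in controls, and WT pool 2 was the lowest WT pool for 26 of the 41 tested carriers.

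The ADP/ATP carriers export newly made ATP from mitochondria in exchange for ADP. Slc25a5, the isoform common in growing cells, stood at 0.10, -0.48 and -0.0012 across the WT pools and at -1.22, -1.65 and -1.43 across the MUT pools. The MUT pools lay far below all WT pools, of which the second was the lowest. Slc25a5 fell 2.48-fold (log2 -1.31 ± 0.18 SE over 3 pools in each group, adjusted p = 0.00196), and its difference was -0.35 and -0.33 with the spike-in controls.

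Slc25a4, the isoform of heart and muscle, had ratios of 0.10, -0.30 and 0.10 across the WT pools and of -0.78, -0.38 and -0.53 across the MUT pools. The groups did not overlap, but MUT pool 2 came within a small distance of WT pool 2. Slc25a4 fell 1.44-fold (log2 -0.53 ± 0.15 SE, adjusted p = 0.0402) but was 0.43 and 0.56 higher with the spike-in controls. Its call was lost without WT pool 1 (adjusted p = 0.132), WT pool 3 (0.152) or MUT pool 3 (0.0797). Slc25a31, the isoform of the testis, did not rise well above background on the 6 arrays.

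Slc25a3 imports the phosphate from which the ATP synthase makes ATP. Its ratios were 0.14, -0.19 and 0.08 across the WT pools and -1.43, -0.92 and -1.09 across the MUT pools. Every MUT pool was well below every WT pool, and MUT pool 1 was the lowest. Slc25a3 fell 2.23-fold (log2 -1.15 ± 0.16 SE, adjusted p = 0.00182), with -0.20 and -0.15 with the spike-in controls. Its other probe fell as well, by 0.95 ± 0.16 (SE, adjusted p = 0.00458). Whether the probes of Slc25a3 and Slc25a5 also bind near-identical copies of these genes was not tested.

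The ATP-Mg/phosphate carriers, which load or unload the matrix with adenine nucleotides under the control of calcium, differed in direction, and 1 of 3 passed. Slc25a25 fell, from -0.06, -0.06 and 0.08 across the WT pools to -0.25, -0.50 and -0.46 across the MUT pools. The groups did not overlap, although the difference was small (log2 -0.39 ± 0.11 SE, adjusted p = 0.0331), and Slc25a25 was 0.57 and 0.52 higher with the spike-in controls. This call was lost without any of WT pools 1 to 3 or MUT pools 2 and 3 (adjusted p from 0.0691 to 0.135), and its second probe, at -0.29, did not pass. Slc25a23 was at -0.28 ± 0.11 (SE, adjusted p = 0.106) and Slc25a24 at 0.33 ± 0.17 (SE, adjusted p = 0.177), and neither passed. Slc25a41 was well above background on 1 of 6 arrays and Slc25a54 on none.

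Neither carrier of pyrimidine nucleotides, which feed the synthesis of mitochondrial DNA and RNA, was called. Slc25a36 was at -0.44 ± 0.18 (SE, adjusted p = 0.106), with all MUT pools below the WT pools and MUT pool 1 the lowest at -0.54. Slc25a33 was at 0.13 ± 0.10 (SE, adjusted p = 0.378), with all MUT pools above the WT pools by a narrow margin. Its second probe was at 0.23 ± 0.15 (SE, adjusted p = 0.294), with overlapping groups.

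Among 7 tested carriers of amino acids 3 fell and none rose. Slc25a12 (aralar) and Slc25a13 (citrin) export aspartate from the matrix in exchange for glutamate, a step of the malate-aspartate shuttle that brings reducing equivalents into mitochondria. Slc25a12 stood at 0.06, -0.42 and -0.02 across the WT pools and at -1.13, -1.22 and -1.21 across the MUT pools. The MUT pools were nearly alike and far below the WT pools. Slc25a12 fell 2.09-fold (log2 -1.06 ± 0.14 SE, adjusted p = 0.00163), with -0.11 and -0.15 with the spike-in controls.

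Slc25a13 had ratios of -0.01, -0.26 and -0.04 across the WT pools and of -0.87, -1.02 and -1.05 across the MUT pools, again without overlap. It fell 1.83-fold (log2 -0.87 ± 0.11 SE, adjusted p = 0.0015) but was 0.085 and 0.038 higher with the spike-in controls. Slc25a29, a carrier of basic amino acids, fell from 0.06, -0.12 and 0.09 across the WT pools to -0.25, -0.61 and -0.86 across the MUT pools. Its MUT pools were spread widely, with the first close to WT pool 2. The difference of -0.59 ± 0.16 (SE, adjusted p = 0.0326) became 0.37 and 0.28 with the spike-in controls and was not called without any of WT pools 1 to 3 or MUT pools 2 and 3 (adjusted p from 0.0573 to 0.124).

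The other amino acid carriers did not pass. Slc25a15, which carries ornithine for the urea cycle, was at -0.31 ± 0.11 (SE, adjusted p = 0.0678), and Slc25a44, proposed to carry branched-chain amino acids, at -0.29 ± 0.12. Slc25a38, which imports glycine for heme synthesis, was at -0.23 ± 0.10. All 3 had MUT pools below the WT pools, but the second probe of Slc25a44, at -0.14 ± 0.13 (SE), had overlapping groups. Slc25a22, a glutamate carrier, had overlapping groups and a difference of 0.04 ± 0.11. Slc25a2 and Slc25a18 were not well above background on any array.

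All 4 carboxylate carriers were tested, and 2 fell. Slc25a11 exchanges malate for 2-oxoglutarate and is the other carrier of the malate-aspartate shuttle. Its ratios were -0.04, -0.42 and -0.15 across the WT pools and -1.17, -1.08 and -1.23 across the MUT pools, so the groups were far apart. Slc25a11 fell 1.94-fold (log2 -0.95 ± 0.12 SE, adjusted p = 0.00159), a difference that was 0.0045 and 0.048 with the spike-in controls.

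Slc25a10, the dicarboxylate carrier, stood at -0.21, -0.69 and -0.28 across the WT pools and at -0.98, -0.92 and -0.87 across the MUT pools. WT pool 2 lay nearer to the MUT pools than to the other WT pools. Slc25a10 fell by 0.53 ± 0.14 (SE, adjusted p = 0.028) but was 0.43 and 0.31 higher with the spike-in controls. It was not called without WT pool 1 (adjusted p = 0.1), WT pool 3 (0.118), MUT pool 2 (0.072) or MUT pool 3 (0.0552). Slc25a1, which exports citrate for lipid synthesis, was at -0.24 ± 0.09 (SE, adjusted p = 0.0953). Slc25a21, the oxodicarboxylate carrier, was at -0.15 ± 0.10.

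The enzymes of the malate-aspartate shuttle, named after their values were seen, fell with its carriers. Mdh1, the cytosolic malate dehydrogenase, fell by 1.34 ± 0.17 (SE) and Got1, the cytosolic aspartate aminotransferase, by 1.15 ± 0.16 (SE). With the spike-in controls Mdh1 was at -0.38 and -0.33, and Got1 at -0.19 and -0.22. Their mitochondrial counterparts Mdh2 and Got2 fell by 0.92 ± 0.17 (SE) and 0.74 ± 0.12 (SE), but were 0.04 and 0.21 (Mdh2) and 0.22 and 0.25 (Got2) higher with the spike-in controls. All 4 enzymes and all 3 shuttle carriers had MUT pools below the WT pools, as had 28.4% of all tested genes. So had 22 of the 31 tested enzymes that use carrier substrates, of which 18 were called lower and 3 higher.

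Slc25a20 exchanges acylcarnitines for carnitine and so brings fatty acids to oxidation. It stood at -0.05, -0.34 and -0.27 across the WT pools and at -0.61, -0.58 and -0.56 across the MUT pools. The MUT pools were alike and below the WT pools. Its fall was small (log2 -0.36 ± 0.11 SE, adjusted p = 0.044), turned to 0.60 and 0.54 with the spike-in controls, and was not called without any of WT pools 1 to 3 or MUT pools 2 and 3 (adjusted p from 0.0504 to 0.144).

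Of 7 tested carriers of cofactors 1 fell. Slc25a16, a carrier linked to the transport of coenzyme A, had ratios of 0.30, -0.16 and -0.01 across the WT pools and of -0.54, -0.71 and -0.79 across the MUT pools. The groups did not overlap, and WT pool 1 was the highest. Slc25a16 fell 1.65-fold (log2 -0.73 ± 0.14 SE, adjusted p = 0.00828) but was 0.23 and 0.13 higher with the spike-in controls. Slc25a42, which exchanges coenzyme A for adenine nucleotides, was at -0.50 ± 0.16 (SE) and just missed the threshold (adjusted p = 0.0533), while without WT pool 2 it was called at -0.68 (adjusted p = 0.00897).

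Slc25a17, the carrier of the peroxisome rather than the mitochondrion, was at -0.29 ± 0.14 (SE, adjusted p = 0.159). Its MUT pool 1 was at -0.05, within the WT pools, against -0.47 and -0.52 in MUT pools 2 and 3, and without that pool it was called at -0.44 (adjusted p = 0.00743). The S-adenosylmethionine carrier Slc25a26, the folate carrier Slc25a32 and the NAD carrier Slc25a51 lay between -0.17 and 0.06 with overlapping groups. The second probe of Slc25a51 had the opposite sign, at -0.29 ± 0.10 (SE, adjusted p = 0.0704), with all MUT pools below the WT pools. That of Slc25a26, at -0.22 ± 0.11 (SE, adjusted p = 0.161), also had all MUT pools below the WT pools.

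Iron enters mitochondria through the mitoferrins. Slc25a28 (mitoferrin 2), the form of most tissues, stood at -0.08, -0.11 and 0.02 across the WT pools and at -0.36, -0.42 and -0.39 across the MUT pools. The groups were each tight and apart. Slc25a28 fell by 0.33 ± 0.09 (SE, adjusted p = 0.0351) but was 0.63 and 0.59 higher with the spike-in controls, and was not called without any of WT pools 1 to 3 or MUT pools 2 and 3 (adjusted p from 0.0613 to 0.142).

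Slc25a37 (mitoferrin 1), which supplies iron for heme in red cell precursors, was at -0.17 ± 0.11 (SE, adjusted p = 0.282) with overlapping groups. Its second probe was at -0.057 ± 0.21 (SE), with MUT pool 1 at -0.42 and MUT pools 2 and 3 at 0.36 and 0.35. Beside these values, 6 of 7 tested markers of red cells fell and 1 rose. Their median was -0.11, -1.19 and 0.14 across the WT pools and between -2.39 and -2.31 in the MUT pools, and 3 of the 10 markers on the array were not well above background on any array. Slc4a1, among those that fell, was also on the list of intercalated cell markers. Its own ratios were the red cell medians of WT pools 2 and 3. The part of red cells in the carriers' values was not tested.

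Slc25a39 and Slc25a40 import glutathione into mitochondria. Slc25a39 stood at -0.13, -0.52 and -0.27 across the WT pools and at -0.92, -0.84 and -0.69 across the MUT pools. The groups did not overlap, with WT pool 2 nearest to the MUT pools. Slc25a39 fell 1.42-fold (log2 -0.51 ± 0.13 SE, adjusted p = 0.0243), was 0.45 and 0.40 higher with the spike-in controls, and was not called without WT pool 1 (adjusted p = 0.0883), WT pool 3 (0.0969) or MUT pool 2 (0.0699). Slc25a40 was at -0.18 ± 0.12 (SE, adjusted p = 0.309).

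Of 3 carriers akin to uncoupling proteins 1 fell and the other two, with positive differences, did not pass. Slc25a30, also known as kidney mitochondrial carrier protein, had ratios of 0.12, -0.59 and 0.11 across the WT pools and of -1.40, -1.43 and -1.02 across the MUT pools. WT pool 2 lay well below the other WT pools but above every MUT pool. Slc25a30 fell 2.24-fold (log2 -1.16 ± 0.21 SE, adjusted p = 0.00608), with -0.20 and -0.34 with the spike-in controls.

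Slc25a14, an uncoupling-like protein known from brain, stood at 0.11, 0.23 and 0.01 across the WT pools and at 0.62, 0.35 and 0.34 across the MUT pools. All its MUT pools were above the WT pools, yet it did not pass (log2 0.32 ± 0.12 SE, adjusted p = 0.0857). Slc25a27, another such protein of brain, had -0.0021, 0.33 and 0.12 across the WT pools and 0.53, 0.42 and 0.19 across the MUT pools. These groups overlapped, and the difference of 0.23 ± 0.13 (SE, adjusted p = 0.241) did not pass. On the spike-in scale with loess both were called higher, at 1.28 and 1.19.

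Of 7 tested carriers whose substrate is other or unknown 3 fell and 1 rose. Slc25a35 stood at -0.07, -0.49 and 0.01 across the WT pools and at -1.47, -1.28 and -0.97 across the MUT pools. The groups were far apart, and Slc25a35 fell 2.08-fold (log2 -1.06 ± 0.18 SE, adjusted p = 0.0042), with -0.10 and -0.28 with the spike-in controls. Its close relative Slc25a34 was at -0.37 ± 0.19 (SE, adjusted p = 0.187), with overlap.

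Slc25a45 had ratios of 0.07, -0.16 and -0.19 across the WT pools and of -0.67, -0.95 and -0.91 across the MUT pools, without overlap. It fell 1.68-fold (log2 -0.75 ± 0.12 SE, adjusted p = 0.00416) but was 0.21 and 0.10 higher with the spike-in controls. Slc25a48 fell from 0.01, 0.17 and 0.26 across the WT pools to -0.67, -0.17 and -0.34 across the MUT pools. It was dim, well above background on 2 of 3 MUT arrays, and its fall of 0.54 ± 0.15 (SE, adjusted p = 0.0308) became 0.42 and 0.070 with the spike-in controls. The call was lost without any WT pool or MUT pool 3 (adjusted p from 0.0546 to 0.125), and the scanner software's own log ratio gave -2.25 (adjusted p = 0.0866).

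Slc25a47, a carrier known from liver, was the member that rose. It stood at -0.08, 0.03 and -0.25 across the WT pools and at 0.65, 0.44 and 0.16 across the MUT pools. The MUT pools were spread but all above the WT pools. Slc25a47 rose 1.43-fold (log2 0.52 ± 0.15 SE, adjusted p = 0.0349), and its difference was 1.48 and 1.48 with the spike-in controls. It was not called without any WT pool or MUT pool 2 (adjusted p from 0.0564 to 0.14). Slc25a46, a protein of the outer membrane that acts in mitochondrial shape, was at -0.11 ± 0.11, and Slc25a53 at 0.25 ± 0.13, and neither passed. Slc25a43 was well above background on 3 of 6 arrays and was not tested.

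**Figure D2:**
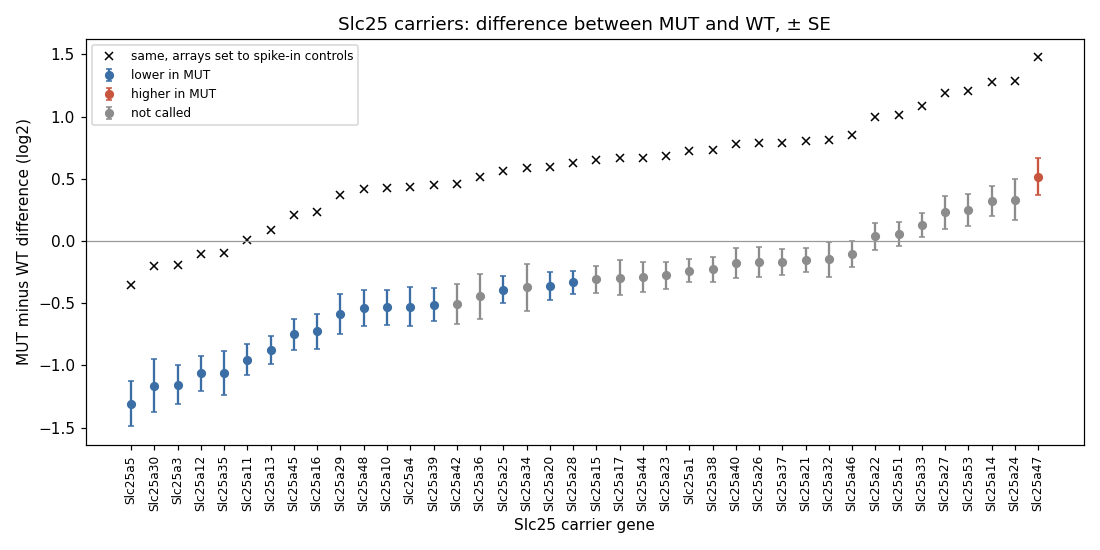
Difference between MUT and WT pools (log2, vertical axis) for the tested carriers but 1, in order of size, as points with ± SE from the limma fit (3 pools per group), with crosses for the same difference after arrays were set to the spike-in controls. Differences ran from -1.31 for Slc25a5 to 0.52 for Slc25a47 after loess, and from -0.35 to 1.48 with the spike-in controls, where 12 of the 17 called falls turned above 0. Each cross lies above its point by the same amount, so the falls that turned are the smaller ones.

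Since a shift of a whole array cancels between genes of that array, related carriers were set against each other within each array. This shows unequal change, not that a carrier stayed the same. In 7 of 9 pairs, chosen with earlier results of these data known, the groups were apart, with no overlap. Of all single genes 28.4% had all MUT pools below the WT pools and 24.2% above them. The share among other pairs of genes was not computed. With 3 against 3 pools the exact two-sided permutation test cannot go below p = 0.1, which these 7 pairs reached (0.129 adjusted over the 9 pairs), so none could pass 0.05.

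The largest difference between groups was in the uncoupling-like carriers. Slc25a14 minus Slc25a30 was -0.01, 0.82 and -0.10 across the WT pools and 2.02, 1.78 and 1.36 across the MUT pools. WT pool 2 lay between the other WT pools and the MUT pools, and the means were 0.24 ± 0.50 (SD, n = 3) in WT and 1.72 ± 0.34 (SD, n = 3) in MUT pools. Slc25a4 minus Slc25a5 was -0.01, 0.18 and 0.10 across the WT pools and 0.44, 1.27 and 0.90 across the MUT pools. The WT pools were close together and the MUT pools spread above them, with a difference of 0.78 between the group means.

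Among the ATP-Mg/phosphate carriers, the group difference was 0.72 for Slc25a24 minus Slc25a25 and -0.61 for Slc25a23 minus Slc25a24, both without overlap. For the pyrimidine carriers, it was 0.57 for Slc25a33 minus Slc25a36, although MUT pool 3 at 0.01 was close to WT pool 2 at -0.10. For aralar minus citrin, Slc25a12 minus Slc25a13, it was -0.19. For the mitoferrins, Slc25a28 minus Slc25a37, it was -0.17. The groups overlapped for Slc25a39 minus Slc25a40 (-0.33) and Slc25a16 minus Slc25a42 (-0.22), both with exact p = 0.3.

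**Figure D3:**
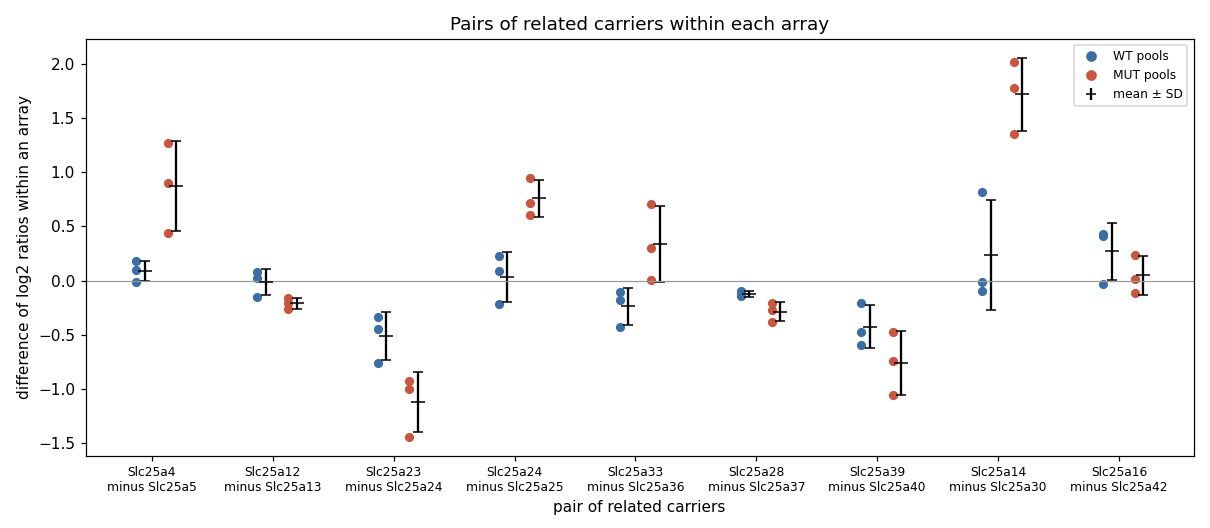
Difference of the log2 ratios of 2 related carriers within an array (vertical axis) for 9 pairs, in the WT pools (blue) and MUT pools (red), with mean ± SD (n = 3). The groups do not overlap in 7 pairs, and the largest difference between group means, 1.48, is that of Slc25a14 minus Slc25a30. The pairs were chosen with earlier results of these data known, and the share without overlap among other gene pairs was not computed.

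Brighter probes fell somewhat more. Across the 41 carriers the difference and the mean log2 intensity had a Pearson r of -0.35 and a Spearman rho of -0.23, against -0.17 and -0.17 across 14583 genes. The points share the same 6 arrays, and genes are not independent replicates.

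Other genes of mitochondrial transport and energy supply, from lists chosen with earlier results of these data known, moved mostly the same way, and most falls shrank or turned with the spike-in controls. Of 121 tested genes in 6 lists 70 fell and 3 rose, where 18.9% of all tested genes fell and 14.0% rose. Among carriers of the family under other symbols, Mtch1 and Mtch2 of the outer membrane fell by 0.69 ± 0.10 (SE) and 0.62 ± 0.10 (SE), but were 0.27 and 0.33 higher on the spike-in scale with loess. The other 2 tested genes of that list did not pass.

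Of 21 other transporters of the inner membrane 10 fell and none rose (median -0.35, which turned to 0.61 on the spike-in scale with loess). Mpc1 and Mpc2, the subunits of the pyruvate carrier, fell by 1.22 ± 0.16 (SE) and 1.26 ± 0.13 (SE), with -0.26 and -0.30 on the spike-in scale with loess. In the outer membrane 3 of 4 channel genes fell, most of all Tspo by 1.44 ± 0.15 (SE), which stayed at -0.49 on the spike-in scale with loess. Protein import genes fell in 8 of 31 cases, rose in none and did not pass in 23. The 25.8% that fell was not far from the 18.9% of all tested genes. Their median of -0.26 turned to 0.70 under the spike-in setting with loess.

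Among enzymes that use carrier substrates 18 of 31 fell and 3 rose. Acss1, which activates acetate in the matrix, fell by 2.35 ± 0.28 (SE), and Ckmt1, the mitochondrial creatine kinase that works beside the ADP/ATP carriers, by 1.83 ± 0.20 (SE). On the spike-in scale with loess Acss1 and Ckmt1 were at -1.39 and -0.87. Respiratory chain and ATP synthase genes fell in 29 of 30 cases (a median of -0.87 that turned to 0.084 under the spike-in setting with loess), among them Cycs, the electron carrier cytochrome c, by 1.43 ± 0.16 (SE).

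**Figure D4:**
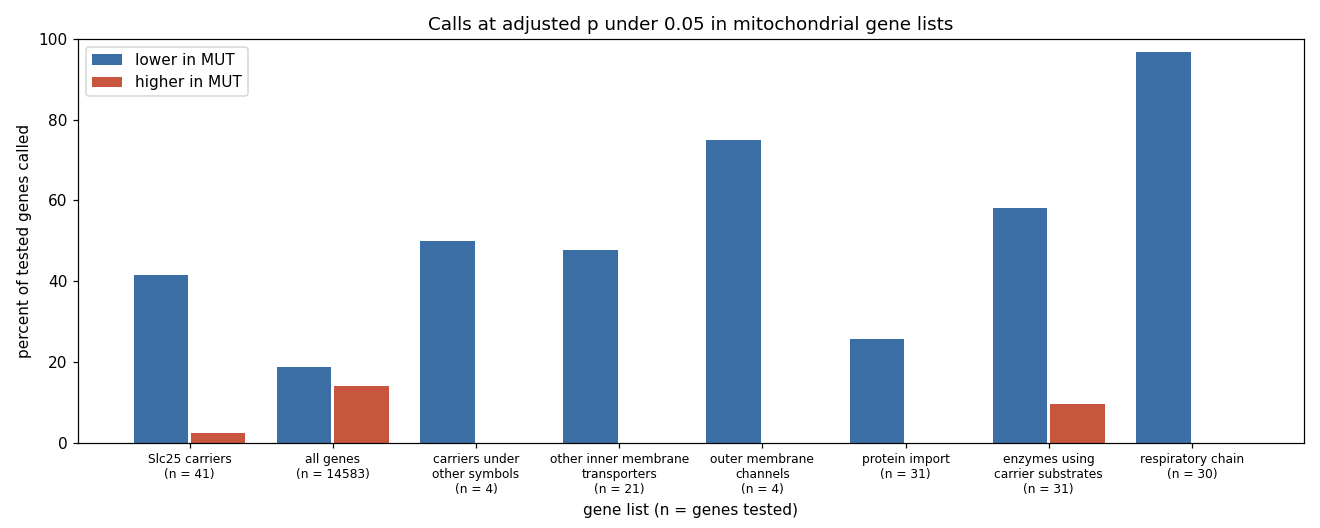
Percent of tested genes called lower (blue) or higher (red) in MUT pools after loess (vertical axis, limma, adjusted p under 0.05) in the Slc25 carriers, all genes and 6 lists of related genes (horizontal axis, with the number tested). Lower calls make up 41.5% of the carriers against 18.9% of all genes and 96.7% of the respiratory chain list, while with the spike-in controls no carrier was called lower.

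Markers of several tubule cell types fell along with the carriers, to different extents. All 17 intercalated cell markers fell, with a median between -0.37 and 0.14 in the WT pools and between -2.39 and -2.18 in the MUT pools. All 16 markers of the loop and distal tubule segments were lower, with medians between -0.65 and 0.10 in the WT pools and between -2.53 and -2.29 in the MUT pools. All 13 tested principal cell markers fell, with medians between -0.09 and 0.12 in the WT pools against -1.62 or lower in the MUT pools, and 2 further markers were not well above background on any array. These medians stayed below 0 with the spike-in controls (-1.25, -1.22 and -0.71 after loess). Of 16 ureteric trunk markers 13 fell and none rose. Of 16 proximal tubule markers 6 fell, none rose and 10 did not pass, and their median of -0.39 turned to 0.57 and 0.56 on the spike-in scale with and without loess. WT pool 2, the lowest WT pool for most carriers, had the lowest WT median in each of these 5 lists.

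The lists of nephron progenitor, stroma and leukocyte markers held more rises than falls. Of 15 nephron progenitor markers 12 rose, with medians between -0.16 and 0.07 in the WT pools and between 1.54 and 1.99 in the MUT pools. Of 15 tested stroma markers 11 rose and 1 fell, with medians between -0.80 and 0.11 against 1.04 and 1.25. Leukocyte markers rose in 10 of 13 cases and fell in 1, and 1 of 7 podocyte markers rose (14.3%, against 14.0% of all genes). Endothelial markers fell in 12 of 14 cases and none rose. Their median of -0.91 turned to 0.044 and 0.021 on the spike-in scale with and without loess. In sorted pools, fewer cells of a type and less carrier RNA per cell cannot be told apart, and the part of the cell mixture in the carriers' falls was not tested.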

How the data were processed

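The deposited scanner files hold spot intensity and local background as median pixel values in both channels, and the submitters' processing notes name Agilent Feature Extraction 10.7.3.1 as the scanner software. The deposited log10 ratios of Cy5 to Cy3 in the scanner files and those in the series matrix differed by at most 0.00499, and both served as alternatives. All arrays were on 1 slide and scanned in 1 session, per the file headers. Each labelling used 0.5 µg of total RNA, per the labels' protocols.

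Local background was removed by normexp (offset 50), and log2 ratios were normalized within arrays by loess, with control spots at weight 0. Outlier spots (0.432%) were left out, no spot was saturated, and spots of a probe were averaged. An offset of this kind understates folds. A probe was tested if its Cy5 signal was well above background on all 3 arrays of either group (28990 of 55681). Accessions were matched to RefSeq symbols (27509 probes). The file headers name another assembly than the gene and promoter tables (GRCm38.p6), so coordinates are given for the RefSeq promoters alone. A gene is its brightest tested probe. The 2 groups were fitted with lmFit and eBayes of limma, with Benjamini-Hochberg adjustment over all tested probes. The pipeline was run on simulated data with independent spot noise, few changed probes and no shift of a whole group. That run could not test the scaling on which the calls depend. Pairs were compared by an exact permutation test.

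Members, substrate groups, lists, pairs and motifs were chosen with earlier results of these data known. Pool values are given for all ADP/ATP, phosphate and uncoupling carriers tested and for the 4 called members with the largest differences, at most, in each other group. In a related list, up to 4 called genes with the smallest p could be named. The 4 enzymes of the malate-aspartate shuttle were named apart from this rule, after their values were seen. Computation used R 4.3.3, limma 3.58.1, data.table (version 1.17.8), Python 3.11.15 and matplotlib 3.10.9. Alternatives covered background, normalization, filter, probe choice, spread, blocks and each array left out. The values of 1 tested carrier and 1 enzyme are not reported here, though both are in the counts and medians.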

Additional observations from a re-analysis of the deposited data

How the results depend on the processing

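Calls moved with the arrays used and with the scaling. Leaving out MUT pool 1 raised the carriers called from 18 to 20, and array weights gave 23. Of the 18 called carriers, 18 kept their call with no filter, with array weights, with all probes averaged or without MUT pool 1. All 17 that could be tested kept it with probes well above background on all 6 arrays.

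Carriers called (18, with 17 lower and 1 higher, in 11 of 12 substrate groups with a lower call) numbered 6 with median centring, 5 of them lower in 5 groups. With the spike-in controls 10 were called with or without loess, 10 higher and 0 lower, in 0 groups. The slide row block compares the MUT pools with a single WT array, that of WT pool 1, and gave 9 calls, 9 lower and 0 higher, in 7 groups, and with Cy5 alone 11 were lower in 7 groups. The scanner software's log ratio and the value table called 14, 0 of them higher. Leaving out 1 array gave 9 to 20 carriers, 9 to 19 lower, 0 to 1 higher, and 7 to 11 groups. The carriers' median of -0.31 was -0.45 with the scanner software's log ratio, -0.45 with the value table, -0.090 with median centring, 0.65 on the spike-in scale with loess and 0.54 on that scale with no loess. It lay between -0.35 and -0.28 with 1 array left out. With median centring the median over all genes was 0.25, and carriers minus all genes was -0.34. Called genes of the related lists, 73, numbered 22 with median centring, 24 and 25 on the spike-in scale, with and without loess, and 44 with the slide row. Called genes in all, 4793, numbered 9130 and 8599 with the spike-in controls, 1584 with the slide row, and 2646 to 5661 with 1 array left out. Pairs without overlap numbered 5 with Cy5 alone and 7 to 8 with 1 array left out.

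With loess kept, the spike-in setting moved all differences up by the same amount, so only the smaller falls could turn above 0. With the spike-in controls (loess kept, then dropped) 12 falls turned above 0. These were Slc25a20 (0.60 and 0.54), Slc25a4 (0.43 and 0.56), Slc25a13 (0.085 and 0.038), Slc25a29 (0.37 and 0.28), Slc25a25 (0.57 and 0.52), Slc25a11 (0.0045 and 0.048), Slc25a10 (0.43 and 0.31), Slc25a16 (0.23 and 0.13), Slc25a39 (0.45 and 0.40), Slc25a28 (0.63 and 0.59), Slc25a45 (0.21 and 0.10) and Slc25a48 (0.42 and 0.070). The carrier with the largest fall was Slc25a5 in the setting reported (-1.31), but Slc25a30 with median centring (-0.97), Cy5 alone (-1.35), a normexp offset of 16 (-1.29) or the spike-in controls without loess (-0.34), Slc25a3 without MUT pool 2 (-1.27), and Slc25a48 with the scanner software's log ratio or the value table (-2.25). Why the carrier with the largest fall differed between these settings was not tested.

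Pool numbers are shared by the groups. Deviations of same-numbered pools correlated at 0.143, 0.0723 and 0.197, so the numbers were not taken to pair the pools, although every pool correlated best with its own number. With the pool number as a replicate block 14 carriers were called, 13 lower and 1 higher, in 8 groups, with 72 related genes, 4581 genes in all, 7 pairs without overlap and an unchanged median of -0.31.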
